A study of Rattus norvegicus with 6 samples.

Results

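The genes described here burn fatty acids or control that process: the Cyp4a hydroxylases, the peroxisomal and mitochondrial enzymes of beta-oxidation, and the receptor, coactivator and lipid-handling genes around them. They were chosen from a list of 32 names through the RefSeq accession of each array probe. Cyp4a14 is an alternative name of rat Cyp4a3 in the RefSeq gene table, so the list held 31 distinct genes, carried by 50 probes. These 31 are set among 32428 tested features (a feature is a named gene, or a probe without a gene name), of which 11815 had a gene symbol. By role there were 4 Cyp4a genes, 5 peroxisomal genes, 14 mitochondrial genes and 8 regulators or lipid-handling genes. All 31 were well above background on all 6 arrays through their brightest probe, so none was lost to the filter on dim probes.

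Kidney cortex RNA from 6 male rats of the Sprague-Dawley strain (Crl:CD(SD)), aged 5 weeks when bought, was hybridised to 6 one-colour (Cy3) Agilent arrays, 1 rat per array. The 3 control rats were given corn oil, labelled VC, for 4 weeks, and the 3 treated rats o-nitroanisole, a nitroaromatic compound, at 400 mg/kg/day over the same time. The labels describe no genetic modification, so the groups differ by the treatment alone as far as they state. The comparison asks how this dose alters transcripts of the renal cortex.

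Fatty acid oxidation is the main energy source of the proximal tubule, the most abundant tubule segment of the cortex. Very long and branched fatty acids are shortened in peroxisomes, and the products and most other fatty acids enter mitochondria as carnitine esters to be degraded in repeated cycles of dehydrogenation, hydration, dehydrogenation and thiolysis. The nuclear receptor PPARalpha switches on many of these genes in rodent liver and kidney when fatty acids or peroxisome proliferators bind it, and the Cyp4a genes and the peroxisomal enzymes are among its classical targets.

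Signal differed little between the arrays, with a 75th percentile of 905 to 1041 units and a share of detected probes (well above background) of 66.4% to 71.5%. No spot was saturated. All 14 proximal tubule markers on the arrays were well above background, among them Lrp2, Cubn and Slc34a1. The corn oil arrays shared 1 slide and its scan, and the o-nitroanisole arrays another, so slide, scan and group cannot be told apart in any difference given here. In the authors' deposited value table the 3 corn oil columns hold the scanner values under other replicate numbers, so which corn oil rat carries which number is not settled, while the group of every array is the same in both sources. The tissue was analysed in bulk, where fewer cells of a type and less RNA per cell cannot be told apart.

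Levels are given as log2 signal relative to the array's 75th percentile (0 means a signal equal to that percentile). Differences are on the log2 scale and run as o-nitroanisole minus corn oil, given ± limma's moderated standard error (SE), with n = 3 rats per group. A gene is called at a Benjamini-Hochberg adjusted p under 0.05 over all 32428 features. By this test 0 of the 31 genes were called, where 0% of all features were. At an unadjusted p under 0.05 there were 8 of the 31, 7 higher and 1 lower, beside 18.9% of all features (6142), 11.8% higher and 7.12% lower. With limma's trend and robust options, 1 of the 31 was called (Acaa1a), beside 1.61% of all features (522), 1.24% higher and 0.373% lower. Under normexp background correction 0 of the 31 were called, beside 0.355% of all features (115). The groups did not overlap for 10 of the 31, with 9 higher and 1 lower under o-nitroanisole, beside 27.2% of all features (17.6% higher and 9.56% lower) and 29.7% of those with a symbol. The share of the 31 genes, 32.3%, was near that background. Among the 11815 features with a symbol, 2463 were higher and 1049 lower without overlap. A difference of at least 1.5-fold was found for 2 of the 31, Acaa1b and Ppara, beside 6.45% of all features. The median log2 difference of the 31 genes was 0.13, where that of all features was 0.03 and that of features with a symbol 0.04. Above 0 lay 23 of the 31, where 56.0% of all features and 6980 of the 11815 with a symbol did. Of these 23, Cyp4a1, Acadl, Hadh, Decr1, Acot2 and Fabp3 fell below 0 under quantile scaling, where 51.2% of all features lay above 0. The median of the 31 was 0.06 under quantile scaling (all features 0.005). Without o-nitroanisole replicate 1 it was 0.040, beside 0.035 for all features in that fit, and without replicate 3 it was 0.21.

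**Figure D1:**
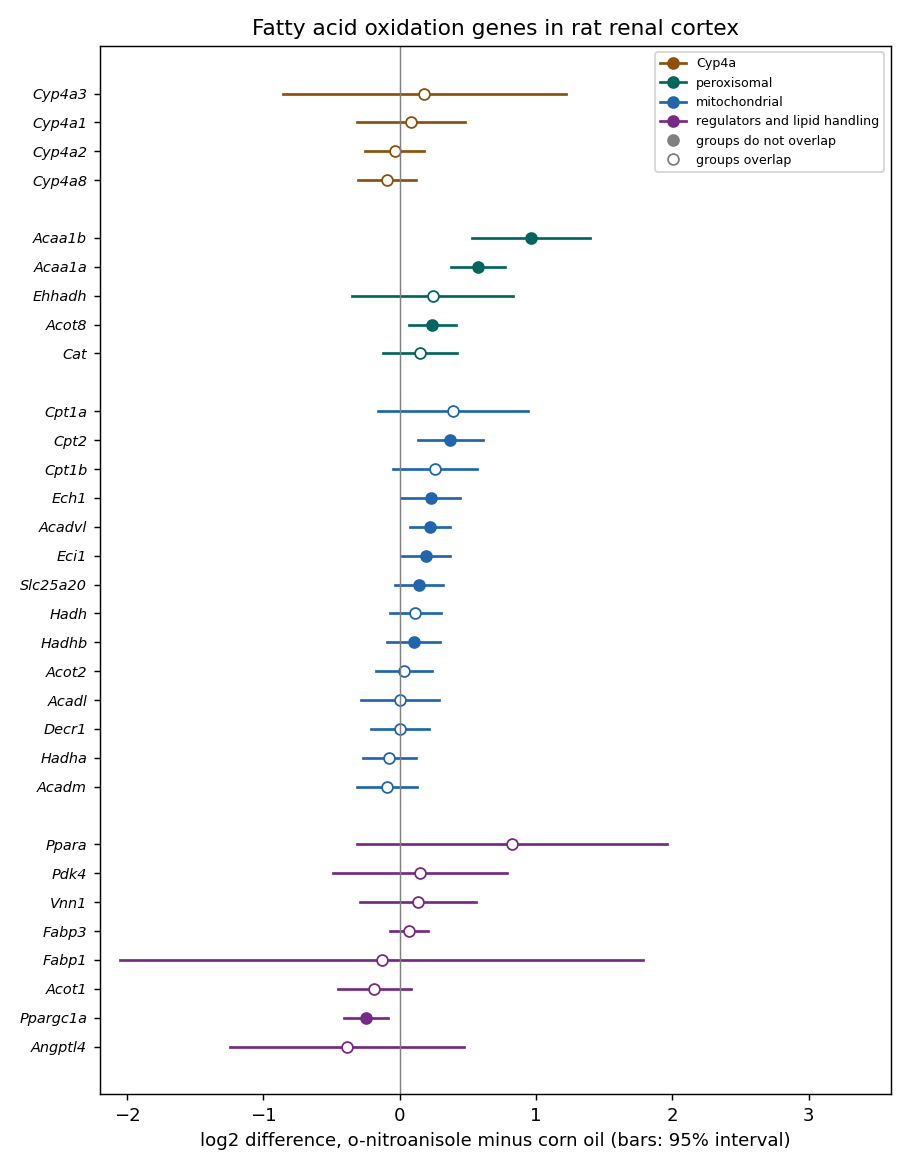
Log2 difference (horizontal axis, o-nitroanisole minus corn oil) of each of the 31 genes, in 4 blocks by role, with the 95% interval of limma's moderated fit as a bar. Filled points mark genes whose groups did not overlap. Acaa1b at 0.96 and Acaa1a at 0.57 have intervals that lie farthest above 0, the Cyp4a genes lie around 0, and Ppargc1a is the filled point below 0.

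Among the genes whose groups did not overlap, the peroxisomal thiolases had the differences farthest from 0. Acaa1a and Acaa1b encode the 3-ketoacyl-CoA thiolases that cleave the shortened chain in the last step of peroxisomal beta-oxidation, and both lie on chromosome 8 with 6 protein-coding genes between them. Their promoter windows (250 bases before to 50 after the start of the gene, RefSeq, GRCr8) are shown for that reason. Capitals mark CCAAT boxes (CCAAT, searched on both strands). The Acaa1a window is chr8:127957231-127957530, plus strand, and the Acaa1b window chr8:127759520-127759819, minus strand.
Acaa1a: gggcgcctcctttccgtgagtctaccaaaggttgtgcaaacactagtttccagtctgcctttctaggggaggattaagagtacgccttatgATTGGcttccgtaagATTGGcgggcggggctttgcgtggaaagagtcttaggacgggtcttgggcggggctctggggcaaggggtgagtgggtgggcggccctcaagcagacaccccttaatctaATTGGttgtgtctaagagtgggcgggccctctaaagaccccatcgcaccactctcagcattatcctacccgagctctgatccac
Acaa1b: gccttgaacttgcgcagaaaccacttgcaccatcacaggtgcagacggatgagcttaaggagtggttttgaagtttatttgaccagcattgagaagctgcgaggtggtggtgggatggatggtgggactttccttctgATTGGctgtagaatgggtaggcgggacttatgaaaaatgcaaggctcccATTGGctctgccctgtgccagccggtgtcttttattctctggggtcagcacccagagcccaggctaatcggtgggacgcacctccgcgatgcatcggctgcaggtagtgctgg
The Acaa1a window holds 3 CCAAT boxes and the Acaa1b window 2, all read on the opposite strand. Of all 33469 promoter windows of this length, 37.49% hold at least 1. The windows were 47.7% identical over 327 aligned columns.

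Acaa1b lay at 6.46, 6.68 and 6.54 in corn oil replicates 1 to 3 and at 7.83, 7.55 and 7.17 in o-nitroanisole replicates 1 to 3. Every treated rat was above every control rat. The difference was 0.96 ± 0.18 log2 (SE, limma adjusted p = 0.110), a 1.95-fold higher signal, and it was higher than 99.1% of the differences of all features. With the trend and robust options the adjusted p was 0.0559.

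Acaa1a lay at 6.02, 5.90 and 6.04 in corn oil and at 6.52, 6.67 and 6.48 in o-nitroanisole, again without overlap. The difference was 0.57 ± 0.08 log2 (limma adjusted p = 0.0880), a 1.49-fold higher signal, and the adjusted p was 0.0248 with the trend and robust options. That call did not hold on leaving out 1 array: over the 6 such fits the adjusted p lay between 0.0528 and 0.102. Those fits also have fewer arrays.

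Each gene had 3 probes, and on all 6 the treated rats were above the control rats. The Acaa1a probes gave differences of 0.57, 0.89 and 0.85 log2, and the Acaa1b probes 0.96, 0.84 and 0.93. The brightest Acaa1a probe, which stands for the gene, gave the smallest of these. The other 5 probes placed o-nitroanisole replicate 1 highest and replicate 3 lowest. How far a probe of one thiolase also binds the transcript of the other was not tested, so the values of this pair are not independent evidence for each gene.

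**Figure D2:**
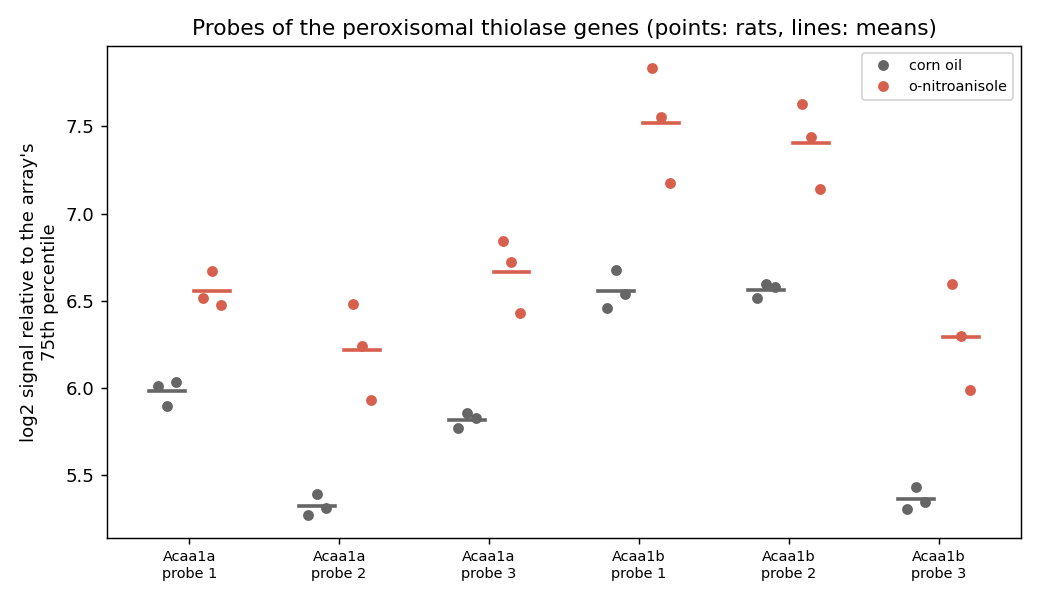
Log2 signal relative to the array's 75th percentile (vertical axis) for the 3 probes of Acaa1a and the 3 of Acaa1b, numbered by probe name. Points are single rats, drawn in replicate order from left to right within each group, and lines are group means. All o-nitroanisole points lie above the corn oil points of the same probe, and the brightest Acaa1a probe (probe 1) has the smallest difference at 0.57.

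The other peroxisomal genes had smaller differences. Acot8, a peroxisomal acyl-CoA thioesterase, lay at 4.92, 4.91 and 5.02 in corn oil and 5.22, 5.10 and 5.24 in o-nitroanisole. Its groups did not overlap, and the difference was 0.24 ± 0.07 log2 (adjusted p = 0.172), with a dimmer probe at 0.09. It was 0.14 under quantile scaling and 0.15 under normexp. Ehhadh, the bifunctional enzyme that acts just before the thiolase, lay at 2.63, 3.02 and 2.62 in corn oil and 3.38, 3.07 and 2.54 in o-nitroanisole. Treated replicate 3 was the lowest of all 6 rats, so the groups overlapped, and the difference of 0.24 ± 0.24 had an interval from -0.35 to 0.83. It was 0.05 without treated replicate 1, 0.38 without corn oil replicate 2 and 0.47 without treated replicate 3. Cat encodes catalase, which removes the hydrogen peroxide made by peroxisomal oxidases. It lay at 2.98, 2.84 and 3.20 in corn oil and 3.26, 3.14 and 3.08 in o-nitroanisole, with overlap, and differed by 0.15 ± 0.11 (adjusted p = 0.503), with 0.07 without corn oil replicate 2, 0.25 without corn oil replicate 3 and 0.09 under quantile scaling. Catalase is also abundant in red blood cells. The 7 tested red blood cell markers were each higher in every treated rat than in every control rat, with summed levels of 430 to 499 times the array's 75th percentile in corn oil and 669 to 818 in o-nitroanisole. Their part in the catalase value was not tested.

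The 5 peroxisomal genes together had a median difference of 0.24 log2. It was 0.19 under quantile scaling and 0.26 under median scaling. The groups did not overlap for 3 of the 5, all higher, beside 27.2% of all features (17.6% higher) and 29.7% of those with a symbol. These 3 were Acot8 and the thiolase pair Acaa1a and Acaa1b, whose values are not independent evidence for each gene. The median was 0.38 without corn oil replicate 2 and 0.47 without o-nitroanisole replicate 3. Proximal tubule markers had a median of 0.22 log2, with 8 of 14 higher and 1 lower without overlap, and their part in the peroxisomal values was not tested.

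Cyp4a enzymes hydroxylate the last carbon of fatty acids, and in the rat kidney they make 20-HETE, a lipid that acts on vessels and on sodium transport, from arachidonic acid. Their genes lie together on chromosome 5. The windows of Cyp4a2 (chr5:134170859-134171158, minus strand) and Cyp4a3 (chr5:134352187-134352486, minus strand) are shown because they are 93.1% identical over 305 aligned columns and hold the same hexamer at the same place. Whether a probe of one Cyp4a gene also binds the transcript of another was not tested. Capitals mark AGGTCA, the core hexamer bound by nuclear receptors, searched on both strands.
Cyp4a2: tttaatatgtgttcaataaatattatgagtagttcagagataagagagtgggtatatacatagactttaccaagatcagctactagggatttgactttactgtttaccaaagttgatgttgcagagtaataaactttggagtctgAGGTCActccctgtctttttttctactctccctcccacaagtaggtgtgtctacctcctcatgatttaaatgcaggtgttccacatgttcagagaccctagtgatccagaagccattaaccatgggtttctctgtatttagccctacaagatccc
Cyp4a3: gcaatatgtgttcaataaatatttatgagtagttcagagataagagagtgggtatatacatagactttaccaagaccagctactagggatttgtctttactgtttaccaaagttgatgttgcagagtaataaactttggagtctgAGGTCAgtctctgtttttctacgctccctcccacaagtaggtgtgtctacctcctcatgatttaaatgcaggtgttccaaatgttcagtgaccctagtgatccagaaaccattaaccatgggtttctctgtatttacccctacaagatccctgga
The hexamer stands at positions -105 to -100 from the start of both genes. It occurs in 16.18% of all windows and in 8 of the 25 windows found for the 31 genes: those of Cat, Acot8, Fabp1, Cyp4a2, Cyp4a3, Hadhb, Eci1 and Acadvl.

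None of the 4 Cyp4a genes had groups that did not overlap. Cyp4a1 lay at 4.83, 4.83 and 5.14 in corn oil and 5.10, 5.22 and 4.73 in o-nitroanisole, a difference of 0.08 ± 0.16 log2 with an interval from -0.31 to 0.48. Cyp4a2 lay at 8.74, 8.50 and 8.50 in corn oil and 8.55, 8.59 and 8.49 in o-nitroanisole, a difference of -0.04 ± 0.09 with an interval from -0.26 to 0.18. Cyp4a8 lay at 8.32, 8.34 and 8.38 in corn oil and 8.37, 8.28 and 8.11 in o-nitroanisole, a difference of -0.09 ± 0.09 with an interval from -0.30 to 0.12. For these 3 genes the upper end of the interval lay below the difference of Acaa1a (0.57). The Acaa1a interval itself ran from 0.37 to 0.77, and the upper end of Cyp4a1 lay inside it. A difference between genes was not tested. Cyp4a3 lay at 8.06, 7.995 and 6.69 in corn oil and 8.19, 7.66 and 7.43 in o-nitroanisole. Its low value in corn oil replicate 3 sets its spread: the difference was 0.18 ± 0.42, with an interval from -0.86 to 1.22, and it was -0.27 without that rat. Cyp4a8 probes disagreed in sign, from -0.09 to 0.16. The median of the 4 genes was 0.02 log2, and it was -0.06 under quantile scaling.

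Entry of fatty acids into mitochondria runs through carnitine. Cpt1a, the outer-membrane carnitine palmitoyltransferase that limits the rate, lay at 2.51, 2.59 and 2.54 in corn oil and 3.45, 2.59 and 2.78 in o-nitroanisole. Treated replicate 1 stood far above the others while replicate 2 lay within the corn oil range, and the difference was 0.39 ± 0.22 log2 (adjusted p = 0.406), or 0.14 without replicate 1. Cpt1b, the form known from muscle, differed by 0.26 ± 0.13 with overlap. A dimmer Cpt1b probe gave -0.51, so its probes went opposite ways, and another was well above background on only 3 of 6 arrays and was not tested. Summed muscle markers lay between 1.03 and 1.101 times the 75th percentile in corn oil and between 0.82 and 1.01 in o-nitroanisole, with Myh2 not well above background on any array.

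Cpt2, the inner-membrane palmitoyltransferase, lay at 3.29, 3.12 and 3.11 in corn oil and 3.64, 3.62 and 3.39 in o-nitroanisole. All treated rats were above all control rats, and the difference was 0.37 ± 0.10 log2 (adjusted p = 0.153, and 0.0808 with the trend and robust options). Slc25a20, the carrier that exchanges acylcarnitine for carnitine between them, lay at 3.21, 3.19 and 3.18 in corn oil and 3.41, 3.36 and 3.22 in o-nitroanisole. Its groups only just did not overlap, with the highest control rat at 3.21 and the lowest treated rat at 3.22, and the difference was 0.14 ± 0.07 (adjusted p = 0.361). It was 0.07 under quantile scaling and 0.009 under normexp.

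The acyl-CoA dehydrogenases, which open each cycle for chains of different length, did not share a direction. Acadvl, for very long chains, lay at 4.29, 4.30 and 4.27 in corn oil and 4.54, 4.54 and 4.44 in o-nitroanisole. Its corn oil rats lay within 0.03 log2 of each other, the groups did not overlap, and the difference was 0.22 ± 0.06 (adjusted p = 0.157), with its other probe at 0.28 and a value of 0.13 under quantile scaling. Acadm, for medium chains, lay at 6.59, 6.38 and 6.53 in corn oil and 6.52, 6.39 and 6.30 in o-nitroanisole, with overlap, and differed by -0.10 ± 0.09 (adjusted p = 0.597). Acadl, for long chains, differed by 0.00 ± 0.12, and by -0.16 under quantile scaling.

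In the later steps, too, some genes separated the groups and others did not. Eci1, the isomerase for unsaturated chains, lay at 6.04, 6.04 and 6.03 in corn oil and 6.30, 6.28 and 6.11 in o-nitroanisole, a difference of 0.19 ± 0.07 log2 (adjusted p = 0.238), or 0.05 under quantile scaling. Ech1, a dienoyl-CoA isomerase found in both mitochondria and peroxisomes and counted as mitochondrial here, lay at 4.64, 4.72 and 4.78 in corn oil and 5.07, 4.96 and 4.81 in o-nitroanisole, a difference of 0.23 ± 0.09 (adjusted p = 0.248), or 0.13 under quantile scaling and 0.11 under normexp. Neither gene's groups overlapped. Hadha and Hadhb encode the subunits of the trifunctional protein and start next to each other on chromosome 6 in opposite directions, with promoter windows that share 200 bases. Hadhb lay at 2.68, 2.73 and 2.70 in corn oil and 2.94, 2.74 and 2.73 in o-nitroanisole. Its groups only just did not overlap, with the highest control rat at 2.726 and the lowest treated rat at 2.731. Treated replicate 1 made up most of the difference of 0.10 ± 0.08 (adjusted p = 0.526), which was 0.03 without that rat. Hadha differed by -0.08 ± 0.08, with its 3 probes between -0.13 and -0.08, and by 0.08 under normexp background correction. Hadh, the dehydrogenase for shorter chains, differed by 0.12 ± 0.08, Decr1, a dienoyl-CoA reductase, by 0.00 ± 0.09, and Acot2, a mitochondrial thioesterase, by 0.03 ± 0.08.

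Of the 14 mitochondrial genes, 12 had a difference above 0, beside 56.0% of all features and 6980 of the 11815 with a symbol. Acadl and Decr1 were among the 12 with differences of only 0.001. Under quantile scaling Acadl, Hadh, Decr1 and Acot2 fell below 0, where 51.2% of all features lay above 0. The groups did not overlap for 6 of the 14, all higher, beside 27.2% of all features (17.6% higher) and 29.7% of those with a symbol. Among these 6, Slc25a20 and Hadhb were only just separated. The median difference of the 14 genes was 0.13 log2, and it was 0.06 under quantile scaling. Of 14 proximal tubule markers, 8 were higher and 1 lower without overlap, beside 17.6% and 9.56% of all features. Their median difference was 0.22 log2. Their summed level was 2746 to 2790 times the 75th percentile in corn oil and 2965 to 3025 in o-nitroanisole. Collecting duct markers were higher without overlap in 5 of 8 cases, from 127 to 136 in corn oil to 147 to 164 in o-nitroanisole when summed. Loop of Henle and distal tubule markers did not rise together: of 6 tested, 1 was higher and 2 were lower without overlap. Their summed level was 638 to 675 in corn oil and 617 to 642 in o-nitroanisole. The part of any of these marker sets in the mitochondrial values was not tested.

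Ppara encodes the receptor PPARalpha. It lay at -1.11, 0.22 and -0.17 in corn oil and 1.12, -0.18 and 0.47 in o-nitroanisole, a range of 1.34 log2 within corn oil and 1.30 within o-nitroanisole. The groups overlapped, and the difference of 0.82 ± 0.46 log2 (adjusted p = 0.393) had an interval from -0.31 to 1.96. It was 0.44 without corn oil replicate 1 and 0.50 without o-nitroanisole replicate 1. Its other probe gave 0.75 with the same order of rats. Ppargc1a, the coactivator PGC-1alpha that drives mitochondrial gene programmes, lay at -0.45, -0.35 and -0.52 in corn oil and -0.69, -0.72 and -0.66 in o-nitroanisole. It was the 1 gene of the 31 that was lower without overlap, with a difference of -0.25 ± 0.07 (adjusted p = 0.156).

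Pdk4, the kinase that turns off pyruvate dehydrogenase when fat is burned, is a sensitive PPARalpha target in many tissues. It lay at -3.39, -3.22 and -2.58 in corn oil and -2.60, -2.95 and -3.21 in o-nitroanisole, with overlap and a difference of 0.15 ± 0.26 log2. Angptl4, a secreted inhibitor of lipoprotein lipase, differed by -0.39 ± 0.35, and by -0.01 without o-nitroanisole replicate 3, whose value of 2.09 was the lowest of the 6. Vnn1, a pantetheinase, differed by 0.13 ± 0.17, Acot1, a cytosolic thioesterase, by -0.19 ± 0.11, and Fabp3, a fatty acid binding protein, by 0.07 ± 0.06.

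Fabp1, the liver form of the binding proteins, is shown with its promoter because that was the 1 window of the 25 with a DR1 element, the direct repeat with 1 base between its parts that PPARalpha is known to bind. The motif searched was AGGNCA, any base, then AGGNCA again, on both strands. It occurs in 0.42% of all windows, and in the Fabp1 window (chr4:104749090-104749389, plus strand) it spans -77 to -65 on the opposite strand, in capitals, where it includes an AGGTCA hexamer.
Fabp1: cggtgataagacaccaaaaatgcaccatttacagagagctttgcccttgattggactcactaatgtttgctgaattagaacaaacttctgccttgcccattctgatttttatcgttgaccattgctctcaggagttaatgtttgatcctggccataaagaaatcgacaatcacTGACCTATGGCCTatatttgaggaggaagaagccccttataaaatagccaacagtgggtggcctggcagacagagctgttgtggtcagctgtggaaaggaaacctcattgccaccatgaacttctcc
Fabp1 lay at -0.26, -1.45 and -3.08 in corn oil and -1.77, -0.95 and -2.47 in o-nitroanisole. The spread between the control rats, an SD of 1.42, was larger than the difference of -0.13 ± 0.78 log2, whose interval ran from -2.05 to 1.79. Summed hepatocyte markers lay between 1.43 and 7.82 times the 75th percentile in corn oil and between 2.98 and 5.44 in o-nitroanisole, with Cyp7a1 not well above background on any array. Their part in the Fabp1 values was not tested.

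The treated rats were not alike in these genes. Relative to each gene's corn oil mean, 27 of the 31 genes were above 0 in o-nitroanisole replicate 1, 24 in replicate 2 and 15 in replicate 3, with median deviations of 0.24, 0.12 and -0.08 log2. Of all 32428 features, 17452, 18375 and 18315 were above 0 in the same 3 rats, with medians of 0.02, 0.04 and 0.04. For the 5 peroxisomal genes the medians were 0.53, 0.32 and 0.29. For the 4 Cyp4a genes they were 0.10, 0.05 and -0.18. Within groups, the median SD of the 31 genes was 0.10 log2 in corn oil and 0.14 in o-nitroanisole, where that of all features was 0.12 in both.

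**Figure D3:**
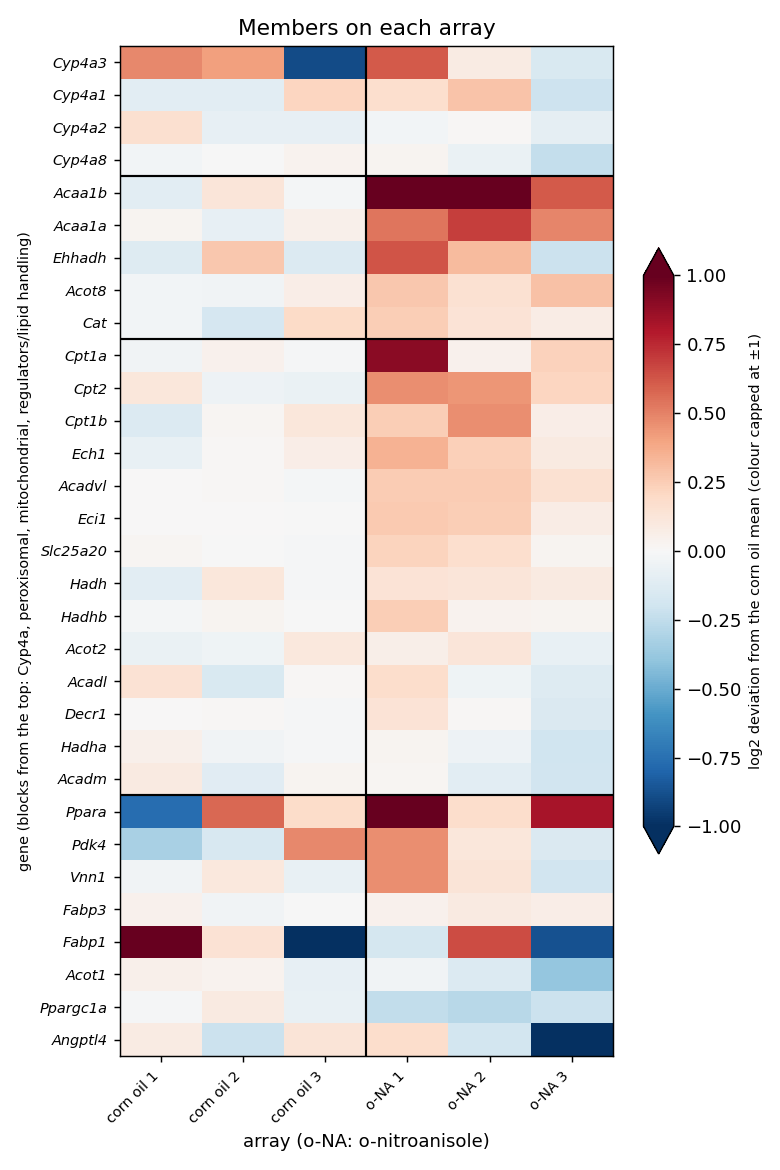
Log2 deviation of each of the 31 genes (rows) from its corn oil mean on each array (columns), with red above and blue below and the colour capped at 1. The thiolase rows are red in all 3 treated rats. Replicate 1 of o-nitroanisole has 27 genes above its corn oil mean and replicate 3 has 15, and Ppara and Fabp1 vary strongly between the corn oil rats.

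Other genes of the pathway, in 8 lists by function, gave 112 tested genes of 131 names. The lists were chosen with earlier results of these data known, so their counts are not an independent check. With limma's defaults 0 were called. With the trend and robust options 7 were, 6 higher and 1 lower, beside 1.61% of all features (1.24% higher and 0.373% lower). The groups did not overlap for 39 higher and 9 lower genes, beside 17.6% and 9.56% of all features. Of the 11815 features with a symbol, 2463 were higher and 1049 lower without overlap. By list, the share without overlap ran from 18.75% (further peroxisomal enzymes) to 57.1% (ketone bodies). That share was 27.2% for all features and 29.7% for those with a symbol. Of each list up to 3 genes, from those with the differences farthest from 0, are given. Pdk2, Gpd1, Pnpla2, Plin2 and G0s2 were added after their values were seen.

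In the further mitochondrial beta-oxidation list, 9 of 17 genes did not overlap, all higher, with a median of 0.16 log2. The list also holds genes of propionyl-CoA breakdown: Mcee and Pcca were among the 9, and Pccb overlapped. Etfdh, which passes electrons of beta-oxidation to the respiratory chain, lay at 3.03, 2.85 and 2.89 in corn oil and 3.45, 3.27 and 3.31 in o-nitroanisole, a difference of 0.42 ± 0.08 (adjusted p = 0.117, and 0.0485 with the trend and robust options). Echs1, the short-chain hydratase, lay at 6.39, 6.48 and 6.55 in corn oil and 6.87, 6.84 and 6.84 in o-nitroanisole, a difference of 0.38 ± 0.07 (adjusted p = 0.106, and 0.0319). Both separate the groups without overlap. Acad11, another acyl-CoA dehydrogenase, differed by 0.36 ± 0.09 (adjusted p = 0.145).

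In the ketone body list, 4 of 7 genes did not overlap, all higher, with a median of 0.32 log2. Bdh2, a hydroxybutyrate dehydrogenase, differed by 0.43 ± 0.08 (adjusted p = 0.110, and 0.0426 with the trend and robust options). It lay at 2.46, 2.59 and 2.63 in corn oil and 3.03, 3.04 and 2.89 in o-nitroanisole, so every treated rat was above every control rat.

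In the further peroxisomal enzymes, 2 of 16 genes did not overlap higher and 1 lower. Decr2, a peroxisomal dienoyl-CoA reductase, differed by 0.53 ± 0.14 log2 (adjusted p = 0.148), and Acox2, the oxidase for bile acid intermediates and branched chains, by -0.43 ± 0.16 (adjusted p = 0.245). Among the 16 peroxisome assembly genes, 5 did not overlap higher and 2 lower. Pex16, needed for new peroxisome membranes, differed by 0.49 ± 0.09 (adjusted p = 0.111, and 0.0445 with the trend and robust options), Pex11a, a PPARalpha target that divides peroxisomes, by 0.50 ± 0.17 (probes from 0.14 to 0.50, adjusted p = 0.208) and Pex6 by 0.25 ± 0.08.

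Among uptake and carnitine genes, Fabp5, an epidermal-type binding protein, lay at 3.45, 3.63 and 3.62 in corn oil and 2.86, 2.57 and 2.74 in o-nitroanisole. All treated rats were below all control rats, with a difference of -0.84 ± 0.10 log2 (adjusted p = 0.0817, and 0.0248 with the trend and robust options). Fabp4, the adipocyte form, differed by -0.97 ± 0.42 with overlap (adjusted p = 0.294). Summed adipocyte markers lay between 1.89 and 2.93 times the 75th percentile in corn oil and between 1.87 and 2.32 in o-nitroanisole, and 0 of the 6 tested separated the groups. Acsl1, a long-chain acyl-CoA synthetase, differed by 0.31 ± 0.09 (probes from -0.01 to 0.31, adjusted p = 0.165).

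In the list of other PPARalpha targets, 8 of 21 genes did not overlap higher and 1 lower, with a median of 0.12 log2. Gpd1, which links glycolysis to glycerol lipids, differed by 0.47 ± 0.08 (adjusted p = 0.0983, and 0.0328 with the trend and robust options), and Pdk2, another pyruvate dehydrogenase kinase, by 0.44 ± 0.08 (adjusted p = 0.110, and 0.0396). Pnpla2 and Plin2 were also higher without overlap, by 0.66 ± 0.13 (adjusted p = 0.119, and 0.0547) and 0.52 ± 0.12 (adjusted p = 0.134, and 0.0661). The gene lower without overlap was G0s2, by -0.305 ± 0.12 (adjusted p = 0.248, and 0.182). Ephx2, soluble epoxide hydrolase, had the largest difference in this list, 2.90 ± 1.15 (adjusted p = 0.256). It lay at -2.12, 1.68 and -2.14 in corn oil and 2.94, 2.07 and 1.12 in o-nitroanisole, so that corn oil replicate 2 sat with the treated rats and the other controls far below. Plin5, a lipid droplet protein, differed by 0.97 ± 0.43, with overlap. Cyp8b1, a bile acid enzyme, differed by -0.81 ± 0.33 with overlap and was well above background on 2 of 3 o-nitroanisole arrays.

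Among 14 nuclear receptors and cofactors, 4 did not overlap higher and 3 lower. Ppard, the receptor PPARdelta, differed by -0.82 ± 0.20 log2 (probes from -0.82 to -0.39, adjusted p = 0.145), Ppargc1b, a coactivator related to Ppargc1a, by -0.41 ± 0.14 (adjusted p = 0.207) and Sirt3, a mitochondrial deacetylase that acts on beta-oxidation enzymes, by 0.42 ± 0.10 (adjusted p = 0.142). Among 8 further omega-hydroxylases of the Cyp4 family, 3 did not overlap, all higher. Cyp4f6 and Cyp4f1 differed by 0.33 ± 0.12 and 0.32 ± 0.11, and Cyp4f5 by -0.46 ± 0.41 with overlap.

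**Figure D4:**
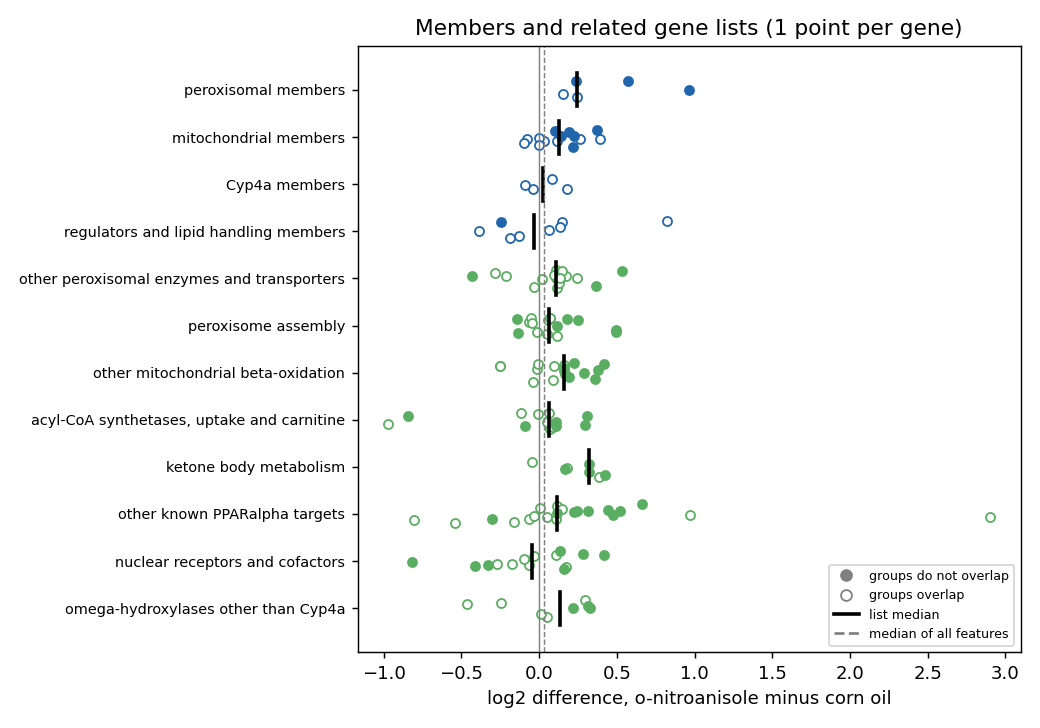
Log2 differences (horizontal axis, o-nitroanisole minus corn oil) of the 31 genes in 4 role groups (blue) and of the 8 related lists (green), 1 point per gene, filled where the groups did not overlap. Black bars are list medians, and the dashed line is the median of all features at 0.03. The peroxisomal genes (0.24) and the ketone body list (0.32) have the highest medians, and Ephx2 is the isolated open point at 2.90.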

How the data were processed

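RNA of 6 rat renal cortices was measured on one-colour arrays. Per the file headers, the deposited intensity values are scanner output of Agilent Feature Extraction (10.7 in the submitters' processing notes). The processed signal is background-subtracted and detrended within the array, without scaling between arrays. The authors' deposited value table holds a linear ratio of that signal to the array's 75th percentile, as checked against the scanner files within 1%, and was an alternative only. The flags for spots well above background, saturated or non-uniform are the authors' deposited values of another kind (0 or 1).

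Each array's processed signal was divided by its own 75th percentile, taken across 61657 non-control probes, and put on the log2 scale. Spike-in probes (84) were left out, and outlier spots were set to missing. RefSeq accessions without version named 27460 of 33356 accession-bearing probes (15284 symbols, GRCr8 gene table). A probe was tested where all arrays of 1 group or both had it well above background, and a gene was its brightest probe. Groups were compared with limma 3.58.1 (R 4.3.3, lmFit and eBayes), and p-values were adjusted by Benjamini-Hochberg. Exact permutation of 3 against 3 rats cannot go below 0.1. Each array is 1 animal per the labels' protocols, and 3 per group limits the precision. The files hold a median but no mean signal, so normexp (offset 50) used the median signal. Plots used Python 3.11.15 and matplotlib 3.10.9.

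The members and lists were chosen with earlier results of these data known. Every gene whose groups did not overlap, and Ppara, Ppargc1a, Pdk4, Cpt1a, Ehhadh, Acadm, Cat and the Cyp4a genes in any case, were to be given on every array. Of each other list, called genes or else the 3 farthest from 0 were named. Some genes that this rule names are not reported here. Same-numbered arrays were not shown to be paired: correlations of their deviations from the group means were 0.09, 0.06 and 0.03.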

Additional observations from a re-analysis of the deposited data

How the results depend on the processing

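Of the 31 genes, 17 kept their sign under all 16 other settings tried. Several of these settings could hardly turn a sign, so the count overstates stability. The trend and robust options change the test and not the difference. The median of the 31 genes stayed at 0.134 log2 with them, with either other filter on dim probes and with outlier spots kept. It also stayed there in the deposited value table and with the replicate block. Leaving out 1 array at a time under the trend and robust options was added after seeing the data. The count of called features was 0 with limma's defaults, 115 under normexp (0 of them among the 31 genes) and 522 with the trend and robust options (1 of the 31, Acaa1a, adjusted p = 0.0248). It was 0 to 4 on leaving out 1 array with the defaults, the 4 without corn oil replicate 3. With the trend and robust options it was 0 to 69 on leaving out 1 array, with 0 of the 31 genes in each such fit. These fits have fewer arrays by construction, and for the other moves the cause was not tested. Genes of the 31 with groups that did not overlap numbered 10, but 6 under normexp. They numbered 11 to 15 on leaving out 1 array, when smaller groups overlap less by construction. The peroxisomal median was 0.22 to 0.47 log2 on leaving out 1 array, the highest without o-nitroanisole replicate 3. Acaa1a lay between 0.51 and 0.85 log2 in those fits because another of its probes became the brightest without corn oil replicate 1 or 3. With the replicate block 0 features were called, and the block changed no call among the 31 genes; the numbers are not shown to pair rats. A block for slide was not run because each slide carries 1 group. Signs turned for 14 genes. Under quantile scaling the log2 difference was -0.014 for Cyp4a1, -0.156 for Acadl, -0.043 for Hadh, -0.126 for Decr1, -0.038 for Acot2 and -0.022 for Fabp3. Under normexp it was -0.123 for Acadl, 0.084 for Hadha, -0.042 for Decr1 and -0.075 for Fabp3, and with probes averaged 0.019 for Cyp4a8 and -0.124 for Cpt1b. On leaving out 1 array the difference ranged from -0.018 to 0.229 for Cyp4a1, -0.078 to 0.042 for Cyp4a2, -0.266 to 0.420 for Cyp4a3, -0.086 to 0.072 for Acadl, -0.067 to 0.075 for Decr1, -0.010 to 0.089 for Acot2, -0.016 to 0.387 for Pdk4, -0.031 to 0.297 for Vnn1 and -0.875 to 0.536 for Fabp1. All 31 genes were well above background on all 6 arrays.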
